A study of Danio rerio with 54 samples.

Results

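The transcripts of 10 genes of inflammatory signalling were followed through lethal cold and rewarming of zebrafish larvae: *il1b*, *cxcl8a*, *cxcl8b.1*, *cxcl18b*, *tnfa*, *tnfb*, *il11a*, *il11b*, *ptgs2a* and *ptgs2b*. They were found by their symbols, each of which marked 1 row among the 30097 genes of the expression table. Whole bodies of AB strain larvae reared at 28 °C were sampled in 18 groups of 3 samples, 54 in all. Untreated controls stayed at 28 °C and were collected at 96, 97, 98, 102, 108 and 132 hpf (hours post fertilization; ctrl_96hpf to ctrl_132hpf). Cold began at 96 hpf in every treated group. The lc groups spent 1, 2, 6, 12 or 24 h at 10 °C (lc_1h to lc_24h). The re groups had 12 h at 10 °C and were then returned to 28 °C for 1, 2, 6, 12 or 24 h (re_1h to re_24h). The survivors of 24 h at 10 °C were given 24 h at 28 °C and sorted into abnormal and normal larvae (er_ab and er_nor). The abnormal larvae were the severely damaged ones, with opaque regions in the brain according to the study. Dead fish were removed before collection, so each treated group holds the larvae that were left. The lc larvae were not sorted, and the study states that survival was hard to judge at the end of cold. Differences between lc_24h and the survivors therefore hold both selection and time after the cold, which cannot be told apart. The number of larvae per sample, and whether the samples of a group came from separate clutches, are not given in the sources used here. The p-values below rest on the spread between these samples within groups, pooled over the 18 groups.

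The cytokine interleukin-1 beta, encoded by *il1b*, is made as a precursor and, once cut and released, sets off inflammation in neighbouring cells. Chemokines of the Cxcl8 and Cxcl18 kind call neutrophils to a wound, tumour necrosis factors act through their own receptors on survival, death and inflammation, and interleukin 11 signals through a receptor shared with interleukin 6 and is known from regenerating tissue of zebrafish. Prostaglandin-endoperoxide synthase 2, of which zebrafish have the copies *ptgs2a* and *ptgs2b*, is the inducible enzyme that opens the synthesis of prostaglandins.

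Levels are TPM, a unit of relative transcript abundance that is scaled by transcript length, so that levels of different genes can be set side by side. The columns summed to between 998493 and 999530 TPM. The table holds no read counts of genes, and the read numbers of the libraries, which the study lists, were not used here. The precision of a single value was therefore judged only from the 3 samples of a group. Fold changes are differences of mean log2(TPM + 1), a scale that understates changes of genes near 1 TPM. Tests came from a single limma fit over the 54 samples, which left 36 residual degrees of freedom. In it the 18 groups share 1 estimate of a gene's spread, so an SE also reflects the spread in groups outside the comparison. A call, higher or lower, needed a 1.5-fold change and an adjusted p (Benjamini-Hochberg) no greater than 0.05. The fit covered 25387 genes, those for which all samples of some group reached 1 TPM. Of the 10 genes 9 did so. In *tnfa* no group reached it, while *il11b* and *il11a* reached it in 4 and 5 groups, those in which they were high. The genes *il1b* and *tnfb* reached it in 8 and 9 groups. None of the groups in which these 4 genes passed was a control. A count of calls or a median over these genes is therefore partly set by the filter. The p-values of these 4 genes in comparisons with a group that passed are not independent of it either. All 24 marker genes of the tissues of a larva were present in every group, from *gfra1a*, whose lowest group mean was 9.76 TPM, to the muscle actin gene *actc1b* at 11744 to 18619 TPM.

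In 3 libraries *il1b* lay over 5-fold from both other samples of the group, which lay within 2-fold of each other. Replicate 1 of ctrl_108hpf stood 7.97-fold above its nearest neighbour, replicate 3 of re_6h stood 8.92-fold below, and replicate 2 of re_12h stood 33.0-fold above. Several differences below that involve these groups are also given without these libraries. The libraries were chosen after the values had been seen and by *il1b* itself, so values and counts without them are a description and carry no test.

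**Figure D1:**
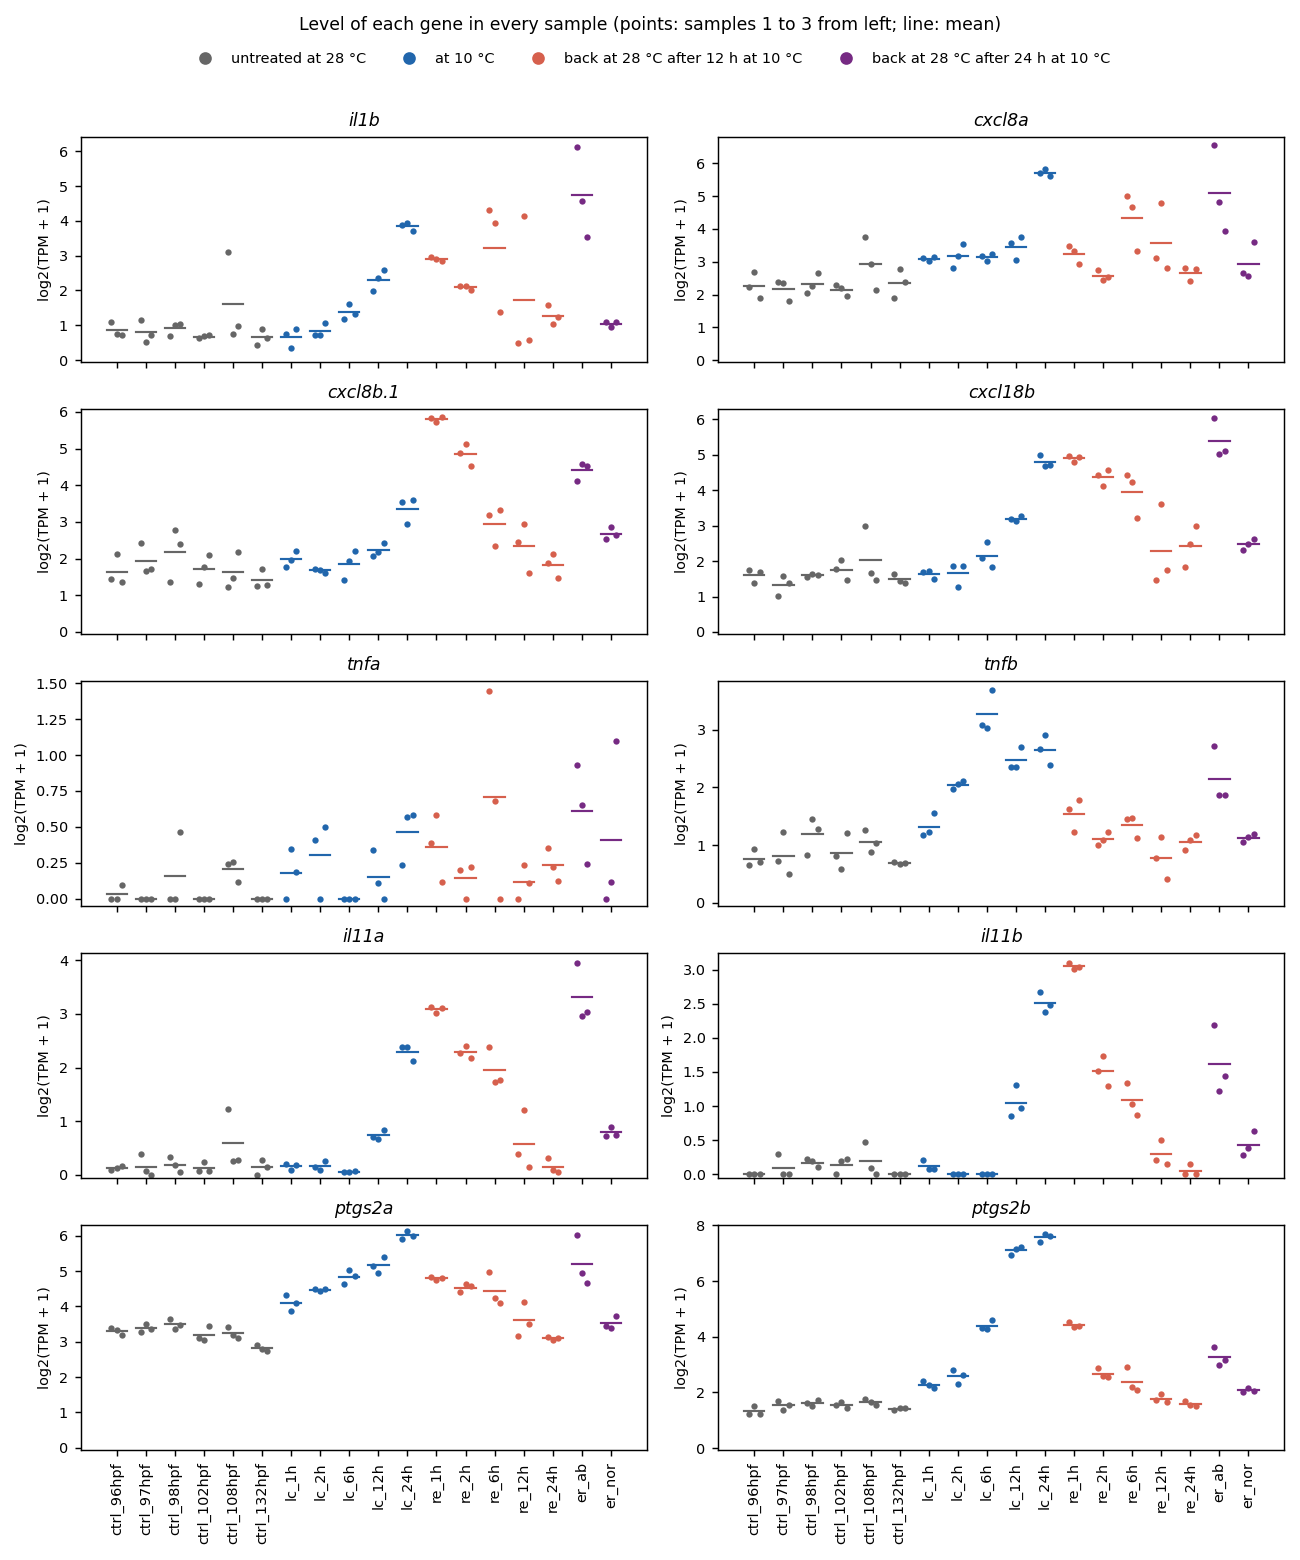
Level of each of the 10 genes in all 54 samples, as log2(TPM + 1) on the vertical axis of each panel and the 18 groups on the horizontal axis. Points are samples, lines are means of 3, and colours mark untreated, cold, rewarmed and survivor groups. The level of *ptgs2b* climbed in the cold to a mean of 189.6 ± 20.8 TPM at lc_24h, *cxcl8b.1* peaked at re_1h, and *il1b* spread widely in ctrl_108hpf, re_6h, re_12h and er_ab.

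The number of genes called rose with time in the cold. Against ctrl_96hpf, 1 of the 10 was higher at lc_1h (0.228% of all genes tested), 3 at lc_2h (0.654%), 3 at lc_6h (2.65%), 7 at lc_12h (5.56%) and 9 at lc_24h (9.3%). None was lower at any of these times, while 24.3% of all genes were lower at 24 h. The median log2 fold change of the 9 genes at 24 h was 2.71 and that of all genes was -0.23. In ctrl_96hpf *il11b* was listed at 0 and *il11a* had a mean of 0.0945 TPM, so neither could be called lower. The filter sets part of these counts and of this median. So does the choice of the genes, made with earlier results of these data known. The split of all calls at 24 h moved with the scaling. As deposited 27.7% of them were higher, and after scaling by the median of ratios 52.6%. The 9 calls among the genes followed here held under both scalings. The 5 comparisons share the ctrl_96hpf samples and are not independent of each other. Against controls of the same age the counts were 1 at 1 h (0.374%), 3 at 2 h (0.906%), 3 at 6 h (3.32%) and 5 at 12 h (5.77%). No control of the age of lc_24h was measured. From one cold time to the next no gene was called between 1 and 2 h (0.177%), 2 were higher from 2 to 6 h (1.36%), 4 were higher and 1 was lower from 6 to 12 h (1.49% and 1.56%) and 7 were higher from 12 to 24 h (3.65%). When any 1 sample was left out, the step from 6 to 12 h had 3 or 4 calls and the step from 12 to 24 h had 6. The call of *cxcl18b* there (1.05, SE 0.36, adjusted p = 0.036) was lost without replicate 1 or 3 of lc_6h or any sample of lc_12h, and that of *il11a* (0.68, SE 0.21, adjusted p = 0.02) without replicate 1 or 2 of lc_6h or replicate 3 of lc_12h.

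Rewarming split the genes. After 1 h of rewarming, 4 were higher than at the end of 12 h in the cold (12.3% of all genes) and 2 were lower (4.55%). After 2 h there were 3 higher and 3 lower (14.1% and 6.55%), and after 6 h 2 higher and 3 lower (16.6% and 5.24%). After 12 and 24 h none was higher and 5 were lower (5.5% and 7.15%). These comparisons share the lc_12h samples. The share of higher calls at 6 h, 2 of 9 tested, lay near the share of all genes. The fall of *il11a* at 24 h (-0.59, SE 0.21, adjusted p = 0.02) lost its call without replicate 3 of lc_12h or replicate 2 or 3 of re_24h. Between rewarming times 4 genes fell from 1 to 2 h (3.02%), 1 rose and 1 fell from 2 to 6 h (5.56% and 2.77%), 5 fell from 6 to 12 h (1.24%) and none was called from 12 to 24 h (2.54%). Without the 3 libraries that stood apart the counts were 8 from 6 to 12 h and 1 from 12 to 24 h, and since those libraries were chosen by *il1b* the first of these is partly set by that choice. When replicate 2 of re_12h alone was left out the count from 6 to 12 h was also 8, and without replicate 1 of re_6h or replicate 1 of re_12h it was 3. In that step *ptgs2a* (-0.84, SE 0.21, adjusted p = 0.0069) stood at -1.27 without the libraries that stood apart and lost its call without replicate 1 of either group, and *ptgs2b* (-0.61, SE 0.15, adjusted p = 0.0059) without replicate 1 of re_6h (-0.35, adjusted p = 0.15) or replicate 1 or 3 of re_12h. Larvae rewarmed for 24 h did not differ by a call from untreated larvae of the same age in any of the 9 genes tested (6.08%), with log2 fold changes between 0.01 and 0.94. In *il1b*, *cxcl18b*, *tnfb*, *ptgs2a* and *ptgs2b* all 3 re_24h samples stood above all 3 of ctrl_132hpf. The same held for *tnfa*, which was not tested and was listed at 0 in ctrl_132hpf. The share of all genes that separate in this way was not counted. By calls, 1205 of all genes were higher and 339 lower in this comparison. For *cxcl18b* alone the unadjusted p was under 0.05 (0.012, adjusted p = 0.051), and without replicate 1 of re_24h *cxcl18b* was called (1.23, adjusted p = 0.019).

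Abnormal survivors had more of all 9 genes tested than normal survivors, with 5.58% of all genes higher and 4.74% lower. Of the 24 tissue markers none was higher and 7 were lower in the same comparison. Among those lower were the cone opsin gene *opn1mw1*, at 182 ± 7.51 TPM against 643 ± 23.7 TPM (log2 fold change -1.82, SE 0.05, adjusted p = 4.1e-28), and the gut gene *fabp2*, at 299 ± 33.5 TPM against 659 ± 51.0 TPM (log2 fold change -1.14, SE 0.09, adjusted p = 5e-13). The summed level of the 24 markers was 28109 to 28893 TPM in er_ab and 30291 to 31004 TPM in er_nor. The muscle actin gene *actc1b*, with group means of 11744 to 18619 TPM over the 18 groups, had the largest share of this sum. The part of the summed level in the levels of the 9 genes was not tested. Against ctrl_132hpf, which is 12 h younger than the survivors, 9 genes were higher in er_ab (16.4%) and 5 in er_nor (10.4%). In these comparisons 7 of 9 neutrophil markers were higher in er_ab and 6 in er_nor, and of 10 markers common to leukocytes 6 and 4. Of 10 macrophage markers 5 were higher and 2 lower in er_ab, and 4 higher and 2 lower in er_nor. The part of these markers in the counts was not tested. In er_nor the call of *cxcl18b* (0.98, SE 0.36, adjusted p = 0.026) was lost without replicate 2 or 3 of either group, and that of *il11a* (0.65, SE 0.21, adjusted p = 0.013) without replicate 1 of ctrl_132hpf. Leaving out 1 sample at a time, all 9 calls between er_ab and er_nor held. The median log2 fold change between er_ab and er_nor was 1.72 over the 9 genes and -0.02 over all genes. The filter and the choice of the genes set part of the first of these values.

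**Figure D2:**
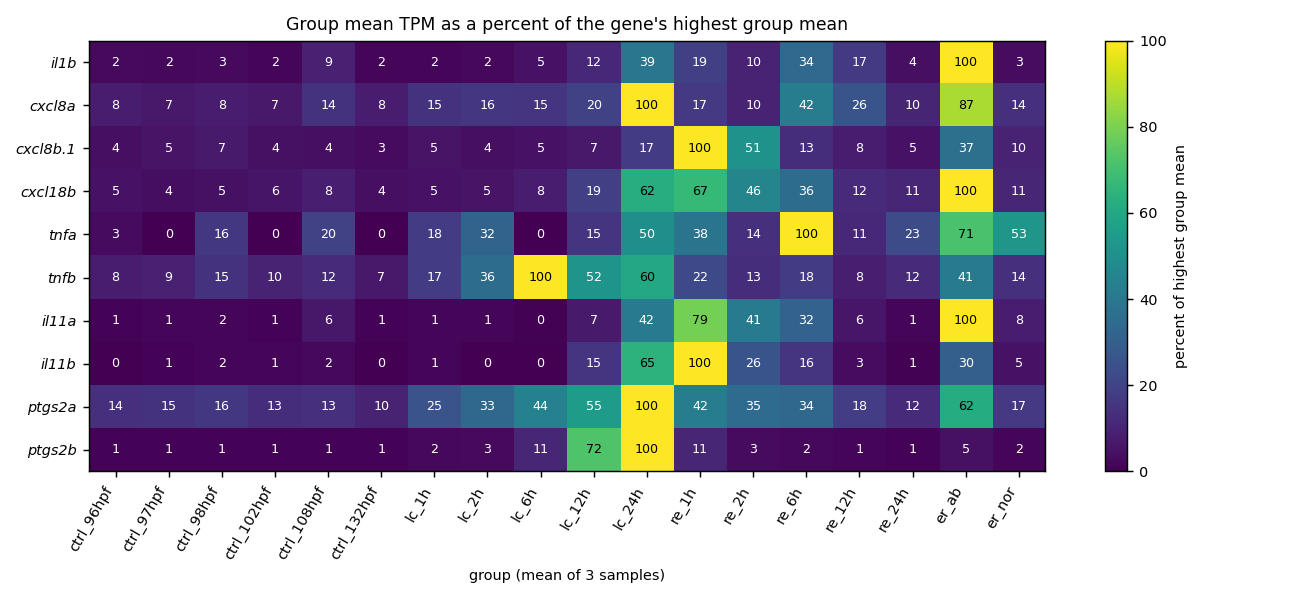
Mean TPM of each group as a percent of the highest group mean of that gene, for 10 genes (rows) and 18 groups (columns, mean of 3 samples). The highest group was lc_24h for *cxcl8a*, *ptgs2a* and *ptgs2b*, re_1h for *cxcl8b.1* and *il11b*, er_ab for *il1b*, *cxcl18b* and *il11a*, lc_6h for *tnfb* and re_6h for *tnfa*.

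The gene *il1b* was low in untreated larvae and at its highest in abnormal survivors. It stood at 1.15, 0.686 and 0.653 TPM in ctrl_96hpf and, outside ctrl_108hpf, no control mean exceeded 0.897 ± 0.236 TPM. In ctrl_108hpf the samples held 7.64, 0.693 and 0.959 TPM, and the first of them stood above every other control sample. In the early cold its means were 0.601 ± 0.297 TPM at 1 h, 0.794 ± 0.248 TPM at 2 h and 1.60 ± 0.403 TPM at 6 h, none of them called. After 12 h the samples held 2.94, 4.08 and 4.98 TPM and after 24 h 13.8, 14.4 and 12.0 TPM. All 3 samples at 24 h stood above all at 12 h, which stood above all of ctrl_96hpf. The log2 fold change against ctrl_96hpf was 1.44 (SE 0.61, adjusted p = 0.054) at 12 h, which was not called, and 2.98 (SE 0.61, adjusted p = 5.3e-05) at 24 h. The step from 12 to 24 h, 1.54 (SE 0.61, adjusted p = 0.043), lost its call when any 1 of the 6 samples was left out, with values between 1.38 and 1.68. The SE of 0.61 rests on the spread in all groups, among them ctrl_108hpf, re_6h, re_12h and er_ab, whose samples differed most. Against ctrl_108hpf the 12 h difference was 0.69 (SE 0.61, adjusted p = 0.37), and 1.44 without the libraries that stood apart.

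At re_6h and re_12h the samples of a group differed widely in *il1b*, as they did in untreated ctrl_108hpf. The gene held 6.74, 6.53 and 6.18 TPM at re_1h and 3.38, 3.40 and 3.06 TPM at re_2h, where the samples lay close together. At re_6h the samples held 18.8, 14.4 and 1.62 TPM and at re_12h 0.393, 16.6 and 0.504 TPM, so that each of these groups had members on both sides of the lc_12h range. By re_24h the level was 1.45 ± 0.489 TPM. Against lc_12h the log2 fold change was 0.60 (SE 0.61, adjusted p = 0.46) at 1 h, 0.91 (SE 0.61, adjusted p = 0.21) at 6 h and -0.56 (SE 0.61, adjusted p = 0.45) at 12 h, none of them called. Without the libraries that stood apart the difference was 1.83 at 6 h and -1.77 at 12 h. The samples left in were then chosen by their *il1b* level, so these values are given as a description, with no test.

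In abnormal survivors *il1b* held 68.7, 23.0 and 10.6 TPM and in normal survivors 1.14, 0.917 and 1.15 TPM. Every er_ab sample stood above every er_nor sample, by 3.70 (SE 0.61, adjusted p = 5.4e-06) on the log2 scale. The er_ab samples themselves spread over a range that included the lc_24h level, and the difference between er_ab and lc_24h, 0.90 (SE 0.61, adjusted p = 0.19), was not called, though it was without replicate 3 of er_ab (1.51, adjusted p = 0.044). The difference of er_nor from lc_24h was -2.80 (SE 0.61, adjusted p = 0.00013) and from ctrl_132hpf 0.39 (SE 0.61, adjusted p = 0.65). Ordered by group mean, er_ab (34.1 ± 30.6 TPM) came first, then lc_24h (13.4 ± 1.21 TPM), re_6h (11.62 ± 8.93 TPM), re_1h (6.48 ± 0.283 TPM) and re_12h (5.84 ± 9.35 TPM), and each group overlapped the next.

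The chemokine gene *cxcl8a* stood high in prolonged cold and in abnormal survivors. Its controls lay between 2.48 and 12.5 TPM, with 3.66, 5.49 and 2.73 TPM in ctrl_96hpf and 12.5, 6.61 and 3.39 TPM in ctrl_108hpf. It stood at 7.51 ± 0.322 TPM after 1 h of cold and at 10.9, 7.21 and 12.6 TPM after 12 h. After 24 h it held 50.7, 55.7 and 48.3 TPM, the highest group mean of the 18 and far above the 12 h samples. Against ctrl_96hpf this was 13.0-fold in mean TPM and 3.44 (SE 0.44, adjusted p = 1.3e-08) on the log2 scale. The smaller rise at 12 h, 1.19 (SE 0.44, adjusted p = 0.029), lost its call without replicate 1 or 3 of either group (1.00 to 1.16). It was not called against ctrl_108hpf (0.52, SE 0.44, adjusted p = 0.34), where the difference was 0.93 without the libraries that stood apart.

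In rewarmed larvae *cxcl8a* was at its highest at 6 h. The samples held 10.1, 9.03 and 6.61 TPM at re_1h, 5.69, 4.41 and 4.79 TPM at re_2h and 31.3, 24.5 and 8.97 TPM at re_6h. From 2 to 6 h the gene rose by 1.76 (SE 0.44, adjusted p = 0.002). At re_12h the samples held 7.68, 26.6 and 5.97 TPM, and the high one was again replicate 2. Against lc_12h *cxcl8a* was not called at any rewarming time. At 6 h the difference was 0.87 (SE 0.44, adjusted p = 0.097), and 1.38 without the libraries that stood apart, of which replicate 3 of re_6h was also the low sample in *cxcl8a*. In the survivors it held 93.6, 27.2 and 14.3 TPM in er_ab and 5.37, 4.86 and 11.0 TPM in er_nor, without overlap. The difference of 2.17 (SE 0.44, adjusted p = 0.00015) was 1.44 (adjusted p = 0.009) without replicate 1 of er_ab. Against lc_24h, er_nor was lower, at -2.78 (adjusted p = 9.6e-07) and er_ab, at -0.61 (SE 0.44, adjusted p = 0.23), was not called, though it was without replicate 1 of er_ab (-1.34, adjusted p = 0.0067).

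The gene *cxcl8b.1*, a copy of the same chemokine gene, had its highest level in the 1st hour of rewarming. It held 1.72, 3.34 and 1.58 TPM in ctrl_96hpf, 3.21, 3.52 and 4.40 TPM at lc_12h and 10.6, 6.75 and 11.2 TPM at lc_24h. Only the last of these was called against ctrl_96hpf (1.72, SE 0.31, adjusted p = 7.8e-06). Within 1 h of the transfer to 28 °C it reached 56.2, 52.2 and 56.8 TPM, which was 14.8-fold the lc_12h mean and overlapped no other group. On the log2 scale the rise was 3.58 (SE 0.31, adjusted p = 1.5e-12). Then it declined, to 28.5, 34.2 and 22.1 TPM at re_2h and 8.20, 4.098 and 8.96 TPM at re_6h. The step from 1 to 2 h, -0.96 (SE 0.31, adjusted p = 0.017), lost its call without replicate 3 of re_2h (-0.80, adjusted p = 0.09), and the step from 2 to 6 h was -1.89 (SE 0.31, adjusted p = 7.1e-06). What was left at 6 h above lc_12h, 0.73 (SE 0.31, adjusted p = 0.047), lost its call without replicate 1 or 2 of lc_12h or replicate 1 or 3 of re_6h (0.55 to 0.70). Among the survivors it held 16.3, 22.9 and 22.0 TPM in er_ab, above all samples of er_nor (4.74, 6.34 and 5.31 TPM) by 1.72 (SE 0.31, adjusted p = 2.3e-05). Compared with lc_24h, er_ab was higher by 1.04 (SE 0.31, adjusted p = 0.0035). Reads that fit several copies of this gene are divided between them by the authors' estimation, so its split from close copies such as *cxcl8b.3* is uncertain.

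The chemokine gene *cxcl18b* rose both in prolonged cold and after it. It held 2.34, 1.59 and 2.22 TPM in ctrl_96hpf, 8.17, 7.68 and 8.75 TPM at lc_12h and 31.0, 24.9 and 25.3 TPM at lc_24h. The first rise was 1.60 (SE 0.36, adjusted p = 0.00033) and the whole rise by 24 h was 3.203 (SE 0.36, adjusted p = 4.4e-10). Against ctrl_108hpf the 12 h difference of 1.16 (SE 0.36, adjusted p = 0.0067) lost its call without replicate 3 of ctrl_108hpf (0.87, adjusted p = 0.065). The rise over lc_12h in the 1st hour of rewarming was 1.71 (SE 0.36, adjusted p = 0.00013). With 30.5, 27.0 and 29.6 TPM at re_1h the gene came near the lc_24h samples. It then held 20.6, 16.4 and 22.7 TPM at re_2h, 20.4, 17.6 and 8.29 TPM at re_6h and 1.74, 11.3 and 2.39 TPM at re_12h. The difference of re_12h from lc_12h, -0.92 (SE 0.36, adjusted p = 0.029), ranged from -0.51 without replicate 1 of re_12h to -1.59 without replicate 2, and lost its call without replicate 1 or 3 of either group. Abnormal survivors held 65.0, 31.8 and 33.6 TPM and normal survivors 3.95, 4.61 and 5.21 TPM. All er_ab samples exceeded all er_nor samples, by 2.92 (SE 0.36, adjusted p = 1.5e-08), and er_ab overlapped no group below it in the order of means.

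The tumour necrosis factor gene *tnfb* was early and peaked in the cold. Its samples held 0.583, 0.913 and 0.625 TPM in ctrl_96hpf, 2.94, 3.15 and 3.31 TPM at lc_2h and 7.48, 7.17 and 11.8 TPM at lc_6h. The lc_6h samples overlapped no other group. Against ctrl_96hpf it rose by 1.28 (SE 0.21, adjusted p = 6e-05) at 2 h and 2.50 (SE 0.21, adjusted p = 1.7e-12) at 6 h. Against ctrl_98hpf the 2 h rise of 0.86 (SE 0.21, adjusted p = 0.0087) lost its call without replicate 1 of ctrl_98hpf (0.69, adjusted p = 0.10). It then held 4.09, 4.09 and 5.50 TPM at lc_12h, a difference from 6 h of -0.80 (SE 0.21, adjusted p = 0.0049), or of -0.59 (adjusted p = 0.07) without replicate 3 of lc_6h, and 5.30, 6.46 and 4.25 TPM at lc_24h. After 1 h of rewarming it held 2.09, 1.33 and 2.42 TPM, lower than lc_12h in every sample (-0.92, SE 0.21, adjusted p = 0.00033). At every later rewarming time it was called lower as well, with -1.37 at 2 h, -1.12 at 6 h, -1.69 at 12 h and -1.41 at 24 h. In er_ab it held 5.56, 2.64 and 2.63 TPM and in er_nor 1.08, 1.19 and 1.3 TPM, a difference of 1.02 (SE 0.21, adjusted p = 0.00014) with no overlap.

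The other tumour necrosis factor gene, *tnfa*, was at the edge of detection. It was listed at 0 in 23 of 54 samples and reached 1.72 TPM at most. That sample belonged to re_6h, whose values were 1.72, 0.601 and 0 TPM, and the 0 in this group was again replicate 3. Group means ran up to 0.774 ± 0.874 TPM, and each group overlapped the next. Without the filter on low values, over 30097 genes, *tnfa* was called in 1 of 37 comparisons, er_ab against ctrl_132hpf, at 0.61 on the log2 scale (adjusted p = 0.02). All 3 ctrl_132hpf samples were listed at 0 there, and er_ab held 0.906, 0.569 and 0.184 TPM.

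The interleukin 11 genes were low in untreated larvae. In ctrl_96hpf *il11a* held 0.0716, 0.0867 and 0.125 TPM, and *il11b* was listed at 0 in all 3 samples. In ctrl_108hpf *il11a* held 1.36, 0.203 and 0.215 TPM and replicate 1 was again the highest. At 12 h of cold *il11a* held 0.633, 0.598 and 0.786 TPM and *il11b* held 0.813, 1.49 and 0.959 TPM. Against ctrl_96hpf these were 0.61 (SE 0.21, adjusted p = 0.018) for *il11a*, which lost its call without replicate 3 of lc_12h (0.56, adjusted p = 0.06), and 1.05 (SE 0.16, adjusted p = 7.7e-07) for *il11b*. Against ctrl_108hpf only *il11b* was called (0.86, SE 0.16, adjusted p = 1.7e-05). By 24 h both were higher in every sample, *il11a* with 4.21, 4.23 and 3.37 TPM and *il11b* with 5.36, 4.19 and 4.59 TPM.

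Within 1 h of rewarming all samples of both il11 genes stood above those of lc_24h, a difference that was called for *il11a* (0.79, SE 0.21, adjusted p = 0.0018) and not for *il11b* (0.54, SE 0.16, adjusted p = 0.004), which fell short of 1.5-fold on the log2(TPM + 1) scale. At re_1h *il11a* held 7.74, 7.14 and 7.59 TPM and *il11b* held 7.55, 7.09 and 7.20 TPM. Both genes passed the filter only through groups in which they were high, among them re_1h, lc_24h and er_ab. Their p-values are therefore not independent of the filter, and their SE also rests on groups at or near 0 TPM. The rises over lc_12h were 2.35 (SE 0.21, adjusted p = 4.3e-12) for *il11a* and 2.00 (SE 0.16, adjusted p = 1.1e-13) for *il11b*. After that they parted. At re_2h *il11a* still held 3.81, 4.32 and 3.52 TPM, while *il11b* was down to 1.87, 2.31 and 1.46 TPM, and the falls from 1 to 2 h were -0.80 for *il11a* and -1.53 for *il11b* (adjusted p = 0.0034 and 6.4e-10). At re_6h *il11a* was above lc_12h (1.22, SE 0.21, adjusted p = 6.2e-06) and *il11b* was not (0.03, SE 0.16, adjusted p = 0.87), with 0.14 for *il11b* without the libraries that stood apart. The survivors also differed. In er_ab *il11a* held 14.4, 6.80 and 7.19 TPM, its highest group mean of all, and *il11b* held 3.55, 1.33 and 1.72 TPM, below its level at lc_24h (-0.89, SE 0.16, adjusted p = 5.1e-06). In er_nor *il11a* held 0.660, 0.857 and 0.682 TPM and *il11b* 0.217, 0.305 and 0.553 TPM. Both genes were higher in er_ab than in er_nor, by 2.52 (SE 0.21, adjusted p = 1.3e-12) for *il11a* and 1.18 (SE 0.16, adjusted p = 9.6e-08) for *il11b*.

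On the log2(TPM + 1) scale the largest change in the cold was that of *ptgs2b*. It held 1.34, 1.83 and 1.33 TPM in ctrl_96hpf and between 1.33 and 2.4 TPM in all controls. In the cold it held 4.26, 3.78 and 3.46 TPM at 1 h, 5.99, 3.98 and 5.16 TPM at 2 h and 18.7, 18.4 and 23.2 TPM at 6 h. At 12 h it held 122, 141 and 149 TPM and at 24 h 166, 207 and 195 TPM, 126-fold the ctrl_96hpf mean. All lc_1h samples already exceeded all untreated samples, and *ptgs2b* was the 1 gene called after 1 h (0.95, SE 0.15, adjusted p = 0.00012). At 24 h the log2 fold change was 6.25 (SE 0.15, adjusted p = 3e-30). From 12 to 24 h it was 0.46 (SE 0.15, adjusted p = 0.015), short of the 1.5-fold a call needed.

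In rewarmed larvae *ptgs2b* fell within 1 h. At re_1h the samples held 22.3, 19.2 and 19.98 TPM and at re_2h 6.36, 5.00 and 4.90 TPM. The mean at re_1h was about that of lc_6h (20.1 ± 2.68 TPM). Against lc_12h the log2 fold change was -2.68 (SE 0.15, adjusted p = 6.3e-18) at 1 h and -4.43 (SE 0.15, adjusted p = 5.9e-25) at 2 h. At re_6h it held 6.52, 3.54 and 3.21 TPM, above ctrl_108hpf by 0.74 (SE 0.15, adjusted p = 0.00036), which lost its call without replicate 1 of re_6h (0.48, adjusted p = 0.019). At re_24h it held 2.24, 1.89 and 1.82 TPM, just above the ctrl_132hpf samples (1.57, 1.73 and 1.73 TPM), a difference that was not called (0.15, SE 0.15, adjusted p = 0.53). In er_ab it held 11.4, 6.88 and 7.99 TPM and in er_nor 3.07, 3.51 and 3.19 TPM. The er_ab samples all stood above er_nor (1.17, SE 0.15, adjusted p = 5.1e-08) and far below lc_24h (-4.31, SE 0.15, adjusted p = 6.7e-25).

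Its copy *ptgs2a* had a higher level in untreated larvae and a narrower range. It held 9.40, 9.08 and 8.05 TPM in ctrl_96hpf, 21.3, 20.7 and 21.5 TPM at lc_2h, 34.04, 30.02 and 41.0 TPM at lc_12h and 59.0, 69.6 and 61.9 TPM at lc_24h. It was called from 2 h on (1.17, SE 0.21, adjusted p = 4e-04) and rose by 2.71 (SE 0.21, adjusted p = 3.8e-14) in 24 h. After 1 h of rewarming it held 27.4, 26.0 and 27.0 TPM, not called against lc_12h (-0.36, SE 0.21, adjusted p = 0.17). It was called lower from 2 h on, at -0.63 (SE 0.21, adjusted p = 0.013), a call lost without replicate 3 of lc_12h or replicate 1 of re_2h (-0.51 and -0.57). At 6 h it was -0.72 (SE 0.21, adjusted p = 0.0044), a call lost without replicate 3 of re_6h (-0.55), and at 24 h it was -2.06. At re_12h its samples held 7.93, 16.5 and 10.4 TPM, the highest being replicate 2. In er_ab it held 63.8, 29.9 and 24.0 TPM and in er_nor 9.87, 9.37 and 12.4 TPM. The survivors' groups did not overlap (1.69, SE 0.21, adjusted p = 2.9e-08). The difference between er_ab and lc_24h, -0.80 (SE 0.21, adjusted p = 0.0011), was -1.21 without replicate 1 of er_ab and lost its call without replicate 3 (-0.52, adjusted p = 0.036).

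**Figure D3:**
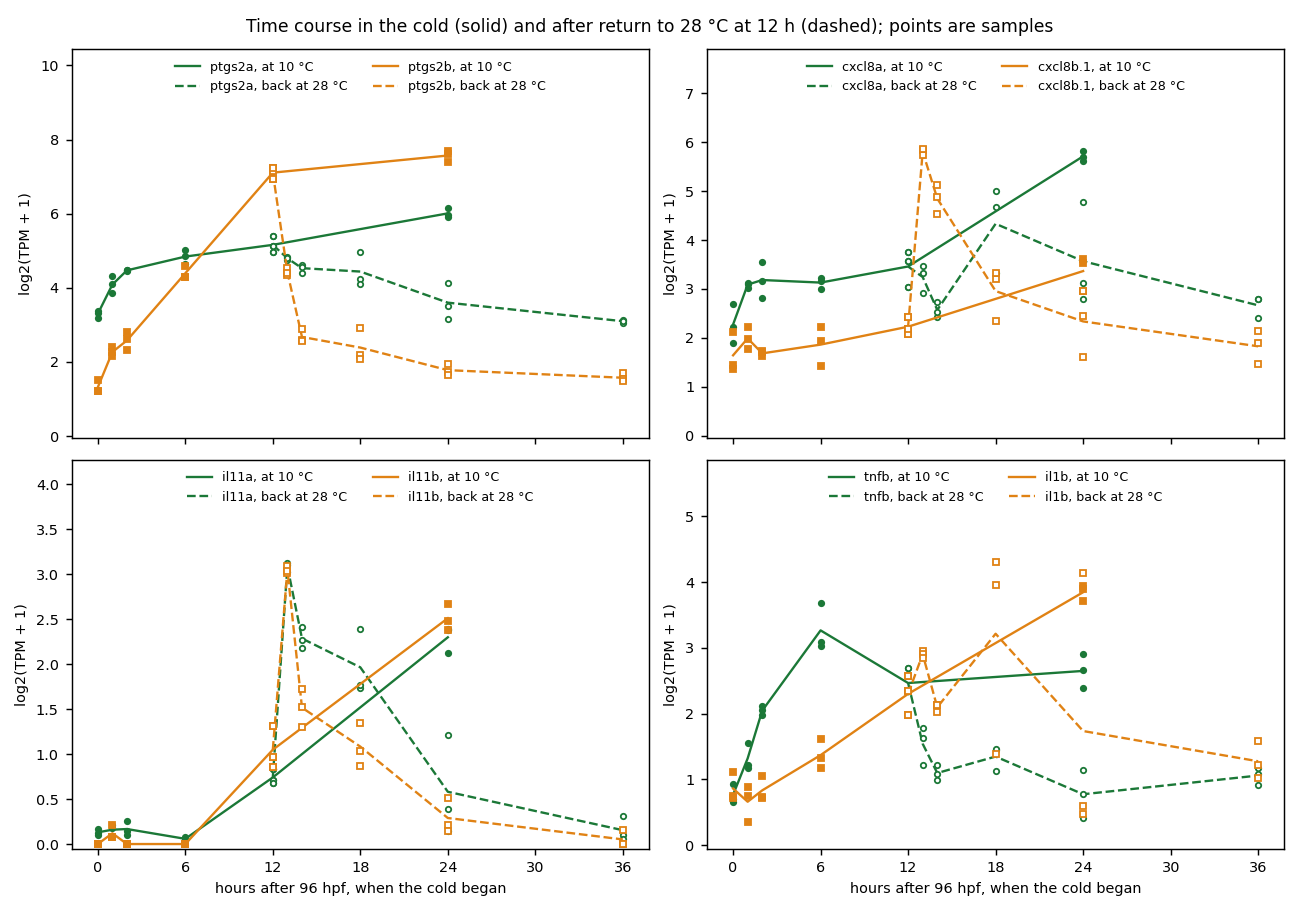
Mean log2(TPM + 1) against hours after 96 hpf for the pairs *ptgs2a* and *ptgs2b*, *cxcl8a* and *cxcl8b.1*, *il11a* and *il11b*, and *tnfb* and *il1b*. Solid lines and filled points are larvae in the cold, dashed lines and open points are larvae returned to 28 °C at 12 h, and points are samples. The lines of *ptgs2a* and *ptgs2b* cross between 6 and 12 h and again within 1 h of rewarming, and *cxcl8b.1* passes *cxcl8a* only at re_1h and re_2h.

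The mean ratio of copies of a gene differed between some of the groups. Per sample, the log2 ratio of *ptgs2b* to *ptgs2a* (pseudocount 1) had a mean of -1.98 in ctrl_96hpf, 1.56 in lc_24h, 1.95 in lc_12h and -0.37 in re_1h. In terms of TPM, *ptgs2a* exceeded *ptgs2b* in every untreated sample, and *ptgs2b* exceeded *ptgs2a* in every sample of lc_12h and lc_24h. The ratio of *cxcl8a* to *cxcl8b.1* had a mean of 0.63 in ctrl_96hpf, 2.35 in lc_24h, 1.23 in lc_12h and -2.56 in re_1h. The ratio of *il11b* to *il11a* moved least between cold and rewarming, from 0.31 in lc_12h to -0.04 in re_1h, and stood at -0.36 in er_nor and -1.70 in er_ab. The other ratios differed less between the survivors. In er_nor and er_ab they were -1.43 and -1.94 for *ptgs2b* to *ptgs2a* and 0.25 and 0.70 for *cxcl8a* to *cxcl8b.1*. For *tnfa* to *tnfb* they were -0.72 and -1.54. Over 12 such comparisons, 4 pairs of copies by 3 contrasts, two-sided exact permutation tests of 3 against 3 samples gave p = 0.1 at best, the smallest they can give, with an adjusted p of 0.12, so none could pass the threshold.

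The cold effect against controls of the same age was itself compared between neighbouring times in the same fit. Between 2 and 6 h it grew by 1.53 (SE 0.29, adjusted p = 5.2e-04) for *tnfb* and by 1.87 (SE 0.22, adjusted p = 5.1e-08) for *ptgs2b*. Between 6 and 12 h it grew by 2.62 (SE 0.22, adjusted p = 2.5e-11) for *ptgs2b* and by 1.00 (SE 0.22, adjusted p = 0.0021) for *il11b*. For *tnfb* it shrank by -0.99 (SE 0.29, adjusted p = 0.021), a call that was lost with a pseudocount of 0.1 and without replicate 2 of ctrl_102hpf, replicate 1 of ctrl_108hpf, replicate 3 of lc_6h or replicate 1 or 2 of lc_12h (-0.78 to -1.29, adjusted p between 0.051 and 0.087). Between 1 and 2 h no gene was called.

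The longest cold and the first hour of rewarming were also compared. Of the 9 genes tested 2 were higher in re_1h than in lc_24h (18.2% of all genes) and 4 were lower (5.53%). The share of higher calls lay near that of all genes. Those higher were *cxcl8b.1* (2.44, SE 0.31, adjusted p = 1.4e-08) and *il11a* (0.79, SE 0.21, adjusted p = 0.0018). Those lower were *ptgs2b* (-3.15, SE 0.15, adjusted p = 2.8e-20), *cxcl8a* (-2.47, SE 0.44, adjusted p = 1e-05), *ptgs2a* (-1.21, SE 0.21, adjusted p = 7.1e-06) and *tnfb* (-1.11, SE 0.21, adjusted p = 2e-05). Against ctrl_108hpf, which is 1 h younger than re_1h and 6 h younger than re_6h, 6 genes were higher at re_1h (8.12%) and 7 at re_6h (3.12%). At re_6h the call of *cxcl8a* (1.40, SE 0.44, adjusted p = 0.022) was lost without replicate 2 or 3 of ctrl_108hpf or replicate 1 or 2 of re_6h. Without the libraries that stood apart the difference was 2.31 for *cxcl8a* and 0.95 for *cxcl8b.1*, which with them was 1.33 (SE 0.31, adjusted p = 0.0016). Larvae of re_12h and lc_24h have the same age, and all 9 genes tested were lower in re_12h (7.86%). Of these, the difference of *cxcl8b.1*, -1.03 (SE 0.31, adjusted p = 0.0039), lost its call without replicate 3 of re_12h (-0.66, adjusted p = 0.075), and that of *il1b* went from -2.11 to -3.31 without replicate 2. Compared with the unsorted larvae of lc_24h, 2 genes were higher and 3 lower in er_ab (27.3% and 10.7%). The share of higher calls there did not exceed that of all genes. In er_nor 8 genes were lower than in lc_24h (8.61%). The 9th, *cxcl8b.1*, stood at -0.68 (SE 0.31, adjusted p = 0.053) in er_nor.

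**Figure D4:**
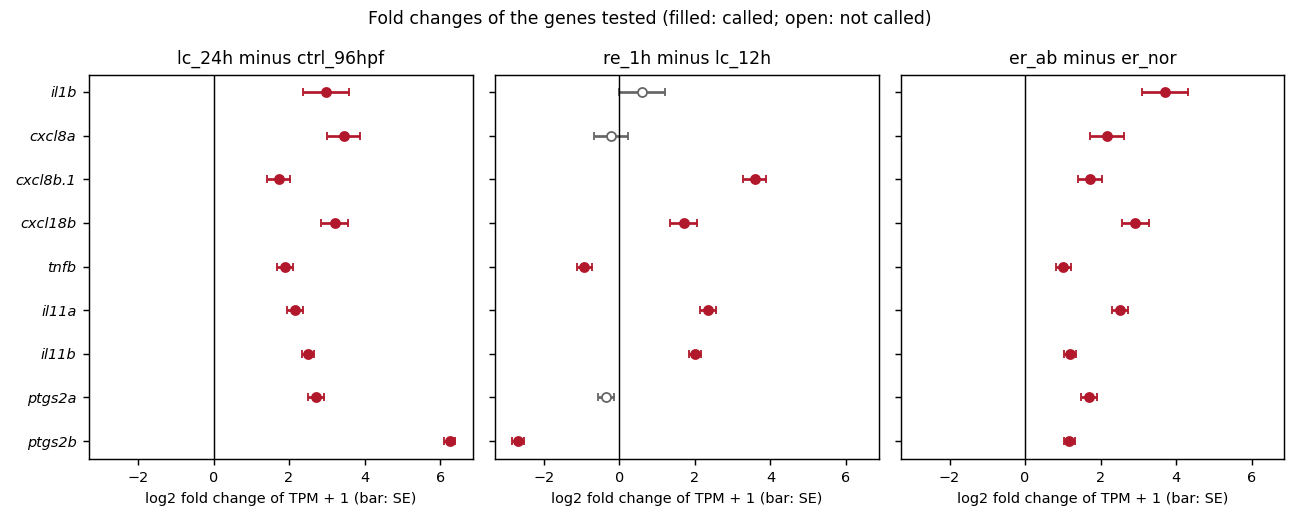
Log2 fold change of TPM + 1 with its SE for the 9 genes tested, in lc_24h minus ctrl_96hpf, re_1h minus lc_12h and er_ab minus er_nor (3 samples in each group). Filled points were called and open points were not. All 9 lie to the right in the first and last panel, while in the middle panel *cxcl8b.1* lies at 3.58 and *ptgs2b* at -2.68.

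No call was made among these genes between untreated larvae of different age. Against ctrl_96hpf no gene of the 9 tested was called in the controls at 97 hpf (0.24% of all genes called), 98 hpf (0.205%), 102 hpf (1.37%), 108 hpf (2.5%) or 132 hpf (12.4%). With 9 genes tested, counts of 0 lie near these shares. In ctrl_96hpf *il11b* was listed at 0 and *il11a* had a mean of 0.0945 TPM, so neither could be called lower. At 108 hpf the difference was 0.75 (SE 0.61, adjusted p = 0.54) for *il1b* and 0.67 (SE 0.44, adjusted p = 0.43) for *cxcl8a*. Without replicate 1 of ctrl_108hpf, which stood apart, these were 0.0030 and 0.26. At 132 hpf *ptgs2a* held 6.45, 5.95 and 5.71 TPM, below every ctrl_96hpf sample, with a difference of -0.48 (SE 0.21, adjusted p = 0.072).

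Within the groups several of the genes varied together. After subtraction of group means, the correlation of log2(TPM + 1) over the 54 samples was 0.83 for *il1b* and *cxcl8a*, 0.81 for *il1b* and *il11a* and 0.79 for *il1b* and *cxcl18b*. It was 0.06 for *il1b* and *cxcl8b.1*. Of 45 pairs 42 had a correlation above 0. The samples share libraries, so these values are a description. They include the libraries that stood apart, and were not computed without them or set against those of other gene pairs. Replicate 1 of ctrl_108hpf was the highest of its group in 8 of the 10 genes, all but *cxcl8b.1* and *tnfa*. Replicate 3 of re_6h was the lowest in 8, all but *cxcl8b.1* and *il11a*. Replicate 2 of re_12h was the highest in all 10, and replicate 1 of er_ab in 9, all but *cxcl8b.1*, in which it was the lowest.

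**Figure D5:**
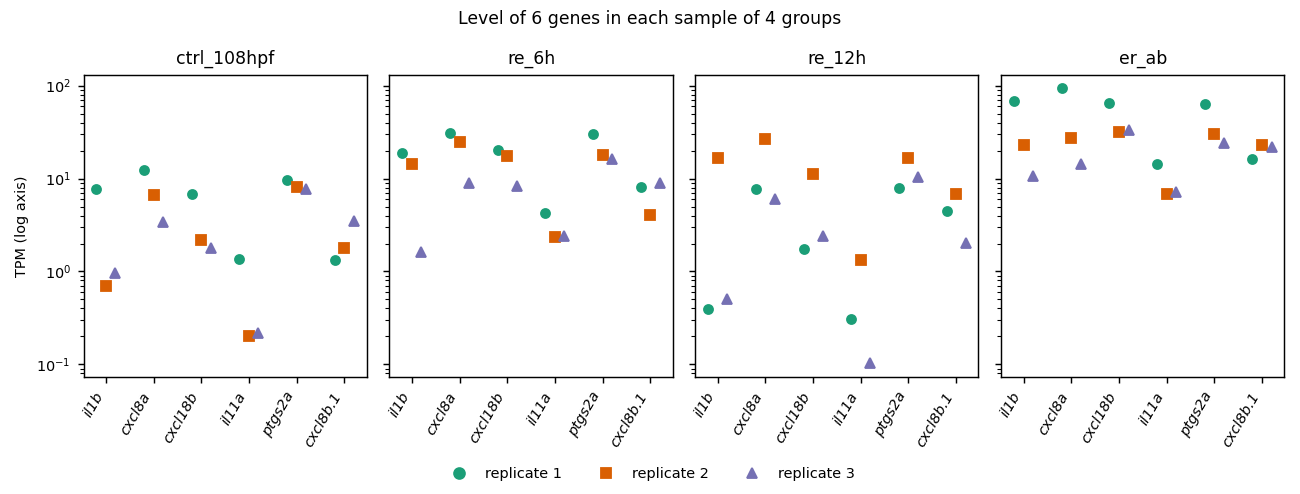
TPM on a log axis of 6 genes in each of the 3 samples of ctrl_108hpf, re_6h, re_12h and er_ab, with replicates 1 to 3 as circles, squares and triangles. In *il1b* replicate 1 of ctrl_108hpf stands at 7.64, replicate 3 of re_6h at 1.62 and replicate 2 of re_12h at 16.6 TPM, away from the other samples of the group, while in *cxcl8b.1* the samples lie closer together.

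Leukocyte markers were measured beside these genes, since in whole larvae fewer cells of a type and less RNA per cell cannot be told apart. The summed level of 9 neutrophil markers was 436 to 508 TPM in ctrl_96hpf and 565 to 662 TPM in lc_24h, and of its genes 3 were higher and 3 lower at 24 h. Those higher were *cpa5*, *ncf1* and *pnp5a*, which were also higher after scaling by the median of ratios and with quantile normalization. Those lower were *mpx*, *lyz* and *npsn*, none of which was lower after scaling by the median of ratios and only *lyz* of which was with quantile normalization. Whether *cpa5* and the other genes of this list are confined to neutrophils was not tested, so their sum and counts need not follow neutrophils alone. In the survivors the sum was 1450 to 1543 TPM in er_ab and 1287 to 1436 TPM in er_nor, with 2 of the 9 higher and 2 lower. At re_1h it was 509.5 to 583 TPM against 392 to 532 TPM in lc_12h. The sum of 10 macrophage markers was 186 to 197 TPM in er_ab and 160.1 to 178 TPM in er_nor, and 1 of its genes was higher. In lc_24h it was 86.3 to 89.2 TPM against 74.0 to 81.3 TPM in ctrl_96hpf. Of its genes 1, *cd74a*, was higher there and 2, *mpeg1.1* and *mpeg1.2*, were lower (3 and 2 after scaling by the median of ratios). Of 10 markers common to leukocytes none was called between er_ab and er_nor. Their sum was 32.5 to 41.6 TPM in lc_24h against 39.4 to 47.4 TPM in ctrl_96hpf, with 1 gene lower and 0 higher. Against ctrl_132hpf the sums of the survivors were higher. In ctrl_132hpf the neutrophil sum was 792 to 980.0 TPM, the macrophage sum 103 to 115 TPM, and the sum of the common markers 51.0 to 54.1 TPM, against 95.9 to 104 TPM in er_ab and 90.5 to 90.9 TPM in er_nor. In the libraries that stood apart the neutrophil sum was 790.0 TPM in replicate 1 of ctrl_108hpf against 768 and 819 TPM in the others, 723 TPM in replicate 3 of re_6h against 664 and 709 TPM, and 859 TPM in replicate 2 of re_12h against 730.5 and 749 TPM. The part of leukocyte number in the levels of the cytokine genes was not tested.

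Of 50 other cytokine and chemokine genes 42 were in the table and 33 were tested. At 24 h of cold 8 were higher and 6 lower than in ctrl_96hpf (9 and 2 after scaling by the median of ratios), at re_1h 6 were higher and 1 lower than in lc_12h, and 10 were higher and none lower in er_ab than in er_nor. Of all genes tested 9.3% were higher and 24.3% lower at 24 h of cold. The shares were 12.3% and 4.55% at re_1h, and 5.58% and 4.74% between the survivors. These shares also apply to the other gene lists. The chemokine gene *ccl34a.4* stood at 20.9 ± 1.17 TPM against 2.74 ± 1.72 TPM (log2 fold change 2.64, SE 0.32, adjusted p = 3.1e-09) at 24 h of cold. The macrophage growth factor gene *il34* stood at 13.5 ± 0.288 TPM against 2.22 ± 0.0701 TPM (log2 fold change 2.17, SE 0.15, adjusted p = 1.1e-15), and *il12a*, which encodes a subunit of interleukin 12, at 2.40 ± 0.889 TPM against 0.177 ± 0.0933 TPM (log2 fold change 1.499, SE 0.18, adjusted p = 1.9e-09). The anti-inflammatory growth factor gene *tgfb1a* moved by less, at 17.4 ± 0.770 TPM against 9.62 ± 1.65 TPM (log2 fold change 0.81, SE 0.09, adjusted p = 9e-10). In the 1st hour of rewarming *clcf1*, of the interleukin 6 family, rose to 3.16 ± 0.459 TPM against 0.879 ± 0.201 TPM (log2 fold change 1.15, SE 0.12, adjusted p = 2.1e-10), and the chemokine genes *ccl35.1* and *cxcl19* were higher as well. The first stood at 4.33 ± 1.86 TPM against 1.68 ± 0.466 TPM (log2 fold change 0.95, SE 0.27, adjusted p = 0.0038) and the second at 1.90 ± 0.543 TPM against 0.418 ± 0.251 TPM (log2 fold change 1.03, SE 0.29, adjusted p = 0.0032). The gene *il17c* was listed at 0 in all samples of re_1h and had a mean of 1.72 TPM in lc_12h. In abnormal survivors *il12a* stood at 9.88 ± 1.09 TPM against 1.39 ± 0.418 TPM (log2 fold change 2.19, SE 0.18, adjusted p = 5.2e-13) and *cxcl8b.3* at 13.3 ± 1.05 TPM against 4.66 ± 0.481 TPM (log2 fold change 1.34, SE 0.14, adjusted p = 5.4e-10). In the same comparison *il34* was higher again, at 6.20 ± 1.80 TPM against 2.29 ± 0.0622 TPM (log2 fold change 1.11, SE 0.15, adjusted p = 1.6e-07), and so was *tgfb1a*, at 17.7 ± 1.91 TPM against 9.93 ± 1.08 TPM (log2 fold change 0.77, SE 0.09, adjusted p = 9.8e-09).

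Of 10 cytokine receptor genes 7 were in the table and 5 were tested. Those tested were *tnfrsf1a*, *tnfrsf1b*, *il11ra*, *il6r* and *il6st*, so no receptor of interleukin 1 beta or of the chemokines was among them. At 24 h of cold *il6st*, the signalling chain shared by interleukins 6 and 11, was at 27.0 ± 1.44 TPM against 12.1 ± 0.398 TPM (log2 fold change 1.099, SE 0.07, adjusted p = 9.4e-18), and *tnfrsf1b*, a receptor of tumour necrosis factor, was at 3.64 ± 0.291 TPM against 1.77 ± 0.193 TPM (log2 fold change 0.74, SE 0.11, adjusted p = 4e-07). In the opposite direction *il11ra*, the receptor chain specific to interleukin 11, was at 2.42 ± 0.292 TPM against 5.04 ± 0.608 TPM (log2 fold change -0.82, SE 0.12, adjusted p = 7.9e-08), a call lost with quantile normalization, and *il6r* at 1.04 ± 0.171 TPM against 3.39 ± 0.434 TPM (log2 fold change -1.11, SE 0.13, adjusted p = 1.4e-09). At re_1h 4 were higher than in lc_12h and none lower. The tumour necrosis factor receptor gene *tnfrsf1a* was at 23.4 ± 1.32 TPM against 9.87 ± 0.477 TPM (log2 fold change 1.16, SE 0.09, adjusted p = 1e-13), *il6st* at 32.2 ± 0.992 TPM against 14.5 ± 0.189 TPM (log2 fold change 1.097, SE 0.07, adjusted p = 3.1e-17), and *tnfrsf1b* and *il11ra* were higher as deposited. The call of *tnfrsf1b* was lost with quantile normalization, and that of *il11ra* both there and after scaling by the median of ratios. Between the survivors 3 were higher in er_ab. They were *il6st* at 53.4 ± 1.02 TPM against 22.1 ± 0.601 TPM (log2 fold change 1.23, SE 0.07, adjusted p = 1.9e-18), *tnfrsf1a* at 28.3 ± 1.40 TPM against 15.3 ± 0.476 TPM (log2 fold change 0.85, SE 0.09, adjusted p = 8.7e-10) and *tnfrsf1b* at 5.72 ± 0.640 TPM against 3.02 ± 0.624 TPM (log2 fold change 0.75, SE 0.11, adjusted p = 1.2e-06).

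Of 37 genes of prostaglandin and leukotriene synthesis, breakdown, transport and reception 33 were in the table and 26 were tested. At 24 h of cold 4 were higher and 4 lower (6 and 1 after scaling by the median of ratios). The gene *ptges*, whose product makes prostaglandin E2 from the product of Ptgs2, was at 24.8 ± 2.68 TPM against 9.23 ± 0.0959 TPM (log2 fold change 1.33, SE 0.11, adjusted p = 4.7e-14). The prostaglandin D2 synthase gene *ptgdsb.1* was at 140.2 ± 11.9 TPM against 66.0 ± 2.91 TPM (log2 fold change 1.07, SE 0.09, adjusted p = 4.2e-13). The constitutive synthase gene *ptgs1* was lower, at 3.79 ± 0.146 TPM against 8.13 ± 0.257 TPM (log2 fold change -0.93, SE 0.10, adjusted p = 2.8e-10), and *hpgd*, which encodes the enzyme that inactivates prostaglandins, was lower as deposited only. At re_1h 7 were higher and 3 lower than in lc_12h. The prostaglandin transporter genes *slco2a1* and *abcc4* were at 14.1 ± 0.821 TPM against 4.91 ± 0.484 TPM (log2 fold change 1.36, SE 0.09, adjusted p = 1.6e-16) and 10.2 ± 0.801 TPM against 4.72 ± 0.136 TPM (log2 fold change 0.97, SE 0.07, adjusted p = 6.3e-15). The phospholipase gene *pla2g4aa*, whose product frees arachidonic acid, was at 9.01 ± 0.731 TPM against 3.63 ± 0.282 TPM (log2 fold change 1.11, SE 0.07, adjusted p = 7.3e-16), and the lipoxygenase gene *alox12* was lower at 5.59 ± 0.364 TPM against 12.8 ± 0.905 TPM (log2 fold change -1.07, SE 0.09, adjusted p = 1.8e-13). Between the survivors 5 were higher in er_ab and none lower, among them *ptges* at 43.1 ± 6.86 TPM against 12.1 ± 1.63 TPM (log2 fold change 1.74, SE 0.11, adjusted p = 1.1e-16), *pla2g4aa* at 14.3 ± 1.58 TPM against 6.85 ± 0.537 TPM (log2 fold change 0.96, SE 0.07, adjusted p = 1.1e-13), *ptgs1* at 12.5 ± 0.525 TPM against 8.01 ± 1.78 TPM (log2 fold change 0.61, SE 0.10, adjusted p = 7.3e-06) and the thromboxane receptor gene *tbxa2r* at 4.09 ± 1.06 TPM against 1.92 ± 0.186 TPM (log2 fold change 0.78, SE 0.26, adjusted p = 0.016). Of 8 genes for the processing of interleukin 1 beta 5 were in the table. The caspase gene *caspb* was lower at lc_24h, though not after scaling by the median of ratios, and at re_1h, with 27.5 ± 3.47 TPM against 45.5 ± 4.70 TPM (log2 fold change -0.71, SE 0.09, adjusted p = 4.2e-08). In er_ab *caspa* was higher, at 19.7 ± 0.162 TPM against 9.08 ± 1.53 TPM (log2 fold change 1.05, SE 0.12, adjusted p = 2e-09).

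Over the 18 group means the genes fell into looser and closer pairs. The closest were *cxcl18b* and *il11a* (Pearson r = 0.97), *il1b* and *cxcl18b* (0.93), *cxcl8b.1* and *il11a* (0.92), *cxcl18b* and *il11b* (0.91) and *il11a* and *il11b* (0.91), the 5 of 45 pairs at 0.9 or more. The loosest were *cxcl8b.1* and *tnfb* (0.18) *tnfb* and *il11a* (0.27) and *tnfa* and *tnfb* (0.27). For each of the 9 genes tested, the 3 most similar of 15093 genes with a group mean of at least 5 TPM were also found. For *ptgs2b* they were *zbtb34* (0.98), *rel*, a subunit of NF-kB (0.98), and *tnfaip3*, an inhibitor of NF-kB (0.98), and for *ptgs2a* *tcima*, *junbb* and *gadd45bb* (0.95 to 0.96). For *cxcl18b* they were *mmp13a*, a collagenase gene (0.99), *nup98* (0.97) and *il11a* (0.97). For *il11a* they were *mmp13a* (0.98), the leptin gene *lepa* (0.98) and *ptges* (0.97), and for *il1b* *csf3b*, a granulocyte growth factor gene (0.95), *mmp13a* (0.94) and *cxcl18b* (0.93). For *cxcl8b.1* they included *phlda3* (0.98) and *acsl4b* (0.96), for *il11b* *FAM83G*, *otud7b* and *fhod1* (0.97 each), for *tnfb* *gpr186* (0.94), *noxo1a* (0.93) and *angptl4* (0.93), and for *cxcl8a* *zfyve28* (0.88), *csf3b* (0.87) and *il1b* (0.87). The correlations are over means of groups that share a time course and carry no test.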

How the data were processed

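RNA of whole larvae was sequenced in 54 samples. According to the methods, the authors mapped clean reads with Salmon 0.13.1 to Ensembl zebrafish cDNA, correcting for sequence, positional and GC bias, and summed to genes with tximport. They deposited the TPM table used here, in which TPM removes depth, so that a value is a share of its library. Each column carried the label of 1 sample.

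Group means of log2(TPM + 1) were fitted with limma 3.58.1 in R 4.3.3 (eBayes with trend) to 25387 genes that reached 1 TPM in all samples of some group, in 37 comparisons, 16 of them the study's. The authors had called genes on counts with DESeq2, which were not used here. The fit was tested on simulated data. Where a symbol of a list had several rows, the one with the highest mean TPM was used. Members and lists were chosen with earlier results of these data known. Named from the lists were up to 4 called genes of each list with the smallest adjusted p in each of 3 comparisons, and the 3 genes most similar to each member with a group mean of at least 5 TPM, of which 1 is not reported here. Genes in other roles (markers, genes shared by libraries that stood apart) were named after their values were seen.

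Alternatives were pseudocounts of 0.1 and 0.5, no filter, a filter at 5 TPM, median-of-ratios scaling, quantile normalization, a fit to the 2 groups alone, no trend, a replicate block and each replicate left out. Same-numbered samples did not deviate together (mean correlation of deviations -6.5e-04, against 3.3e-04 for other numbers), so samples were not paired. No sequences or genome positions were used here.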

Additional observations from a re-analysis of the deposited data

Results flagged for a closer look

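The cold effect against controls of the same age differed between neighbouring times, by a test of the difference in the same fit, in 5 cases. For *tnfb* it was larger at 6 h than at 2 h by 1.53 on the log2 scale (SE 0.294, adjusted p = 5.2e-04) and smaller at 12 h than at 6 h by -0.987 (SE 0.294, adjusted p = 0.021). For *ptgs2b* it was larger at 6 h than at 2 h by 1.87 (SE 0.215, adjusted p = 5.1e-08) and larger at 12 h than at 6 h by 2.62 (SE 0.215, adjusted p = 2.5e-11). For *il11b* it was larger at 12 h than at 6 h by 1.00 (SE 0.224, adjusted p = 0.0021). The lc_6h samples of *tnfb* stood above those of every other group, and the lc_12h samples of *ptgs2b* and *il11b* above those of every control. The smaller effect of *tnfb* at 12 h was the 1 case of the 5 that lost its call under any alternative, in 6 of them.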

How the results depend on the processing

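Over 5085 recomputations of 333 single values (9 genes in 37 comparisons), 4919 stayed on their side of the threshold, 91 lost a call and 75 gained one. Some values that were not called changed sign. Without the libraries that stood apart, *il1b* in re_24h against re_12h went from -0.46 to 0.74. Without the trend and with the replicate block all 333 were kept. In the block fit the number of calls between er_ab and er_nor was 9, as without it, and in 0 of the 37 comparisons did every same-numbered pair correlate above 0.1. With a pseudocount of 0.1, 2 genes in place of 4 were called in re_2h against re_1h. In re_24h against ctrl_132hpf 1 in place of 0 was called with pseudocounts of 0.1 and 0.5 and with the filter at 5 TPM. With only the 2 groups compared, calls went from 1 to 0 for lc_1h against ctrl_96hpf and against ctrl_97hpf, from 3 to 1 for lc_2h against ctrl_98hpf, from 3 to 5 for lc_6h against ctrl_102hpf, from 5 to 0 for re_12h against re_6h and from 7 to 3 for re_6h against ctrl_108hpf, in a fit that has fewer samples to estimate the spread. Leaving out the 3 libraries that stood apart, chosen by *il1b* after the data were seen and so a description, gave 8 in place of 5 for re_12h against re_6h and 1 in place of 0 for re_24h against re_12h. With 1 sample left out, the counts ranged from 3 to 4 for lc_12h against lc_6h (5 with all), from 3 to 8 for re_12h against re_6h, and from 0 to 1 for re_24h against re_12h and for re_24h against ctrl_132hpf. For lc_24h against lc_12h the count was 6 each time (7 with all). It ranged from 5 to 7 for lc_12h against ctrl_96hpf and from 5 to 8 for re_6h against ctrl_108hpf.

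The middle of all genes lay at -0.23 in lc_24h against ctrl_96hpf and at up to 0.297 (re_12h against lc_24h) on the log2 scale. Scaling by the median of ratios or by quantiles moved the share of higher among all calls by over 10 percentage points in 23 of 37 comparisons. In re_1h against lc_12h it was 72.9% as deposited and 61.3% after the median of ratios, and in er_ab against er_nor it moved by less. The scalings left 327 and 323 of the 333 values on their side. Low levels limit *tnfa*, *il11a* and *il11b*, for which the table gives no counts.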

Other observations

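Some of the genes most similar to *il1b* and *cxcl18b* over group means also differed between the samples of single groups. The gene *nup98*, similar to *cxcl18b*, differed less. It held 21.5, 22.99 and 21.5 TPM in replicates 1 to 3 of re_12h and 38.5, 29.9 and 35.4 TPM in re_6h, lowest in replicate 2. At re_6h *il11a*, also similar to *cxcl18b*, held 4.23, 2.33 and 2.41 TPM and was lowest in replicate 2 as well. Its highest samples were replicate 1 in ctrl_108hpf (1.36 TPM) and replicate 2 in re_12h (1.32 TPM), as for *il1b*. The collagenase gene *mmp13a* held 15.9, 1.37 and 1.36 TPM in replicates 1 to 3 of ctrl_108hpf, 1.71, 24.6 and 2.01 TPM in re_12h and 223, 102 and 73.8 TPM in er_ab, with the same replicate highest as for *il1b*. At re_6h it held 63.4, 23.8 and 13.1 TPM, lowest in replicate 3. The growth factor gene *csf3b* held 6.57, 6.72 and 1.61 TPM at re_6h, 1.05, 7.06 and 1.29 TPM at re_12h and 15.1, 3.12 and 2.19 TPM at er_ab, but 1.11, 1.24 and 1.49 TPM in ctrl_108hpf, where replicate 1 was the lowest.

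Across all 25387 genes tested, on the log2(TPM + 1) scale, 31 stood over 4-fold above both other samples in replicate 1 of ctrl_108hpf, 48 stood that far below in replicate 3 of re_6h and 33 that far above in replicate 2 of re_12h. In the opposite direction there were 39, 28 and 20 genes. Of the former genes 3 were common to the libraries, 9.68%, 6.25% and 9.09% of each set. They were *il1b*, by which the libraries had been found, a gene with a clone name, and 1 of 3 gene IDs named *rpl32*, a ribosomal protein gene. That ID held 157.7 TPM in replicate 1 of ctrl_108hpf against at most 22.4 TPM in the others, was listed at 0 in replicate 3 of re_6h against at least 70.3 TPM, and held 287.7 TPM in replicate 2 of re_12h against at most 4.52 TPM. Over all samples it ran from 0 to 458 TPM, while the other IDs named *rpl32* ran from 2235 to 3810.2 TPM and from 472 to 810.3 TPM. Reads that fit several of the IDs are divided between them by the authors' estimation, so the level of any 1 of them is uncertain.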
